A study of Mus musculus with 2 samples.

Results

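The insulin-like growth factor (IGF) system genes described here are 10 mouse genes: the ligand genes Igf1 and Igf2, the receptor genes Igf1r and Igf2r, and the binding protein genes Igfbp2, Igfbp3, Igfbp4, Igfbp5, Igfbp6 and Igfbp7. They were taken from 21887 protein coding genes, and a GATA4 peak was placed at a gene when its centre lay in the gene span or within 50 kb of it. By that rule 36 of the 17539 deposited peaks, or 0.205%, belonged to the set, in 40 pairs of a gene and a peak, because 4 peaks lay in the windows of both Igfbp2 and Igfbp5. The peaks come from chromatin immunoprecipitation sequencing of GATA4, a zinc finger transcription factor that binds GATA sequences, in cultured myoblasts, the proliferating precursors of muscle fibres. The GATA4 group was precipitated with a mixture of 3 anti-GATA4 antibodies and the IgG group with control IgG. Both groups were myoblasts grown from satellite cells (muscle stem cells) of the strain STOCK Myf5tm1Pas/J, so both carry the targeted Myf5 allele in that name. Both were grown on collagen in Ham's/F10 with 20% FBS and with bFGF at 20 ng/ml, and were fixed with 1% formaldehyde. Each group had 1 library, so there is no replicate error and nothing was tested between libraries. The labels do not state the age of the animals or how many were pooled. No expression values were analysed here, so the identity of the cells was not checked against muscle markers. Reads were not analysed here, which leaves unknown both the depth behind a peak and the IgG signal at the same place.

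IGF1 and IGF2 are small secreted hormones that act through the tyrosine kinase receptor encoded by Igf1r and, inside the cell, through the PI3K, AKT and mTOR kinases. The product of Igf2r, a receptor for mannose 6-phosphate, takes IGF2 up and sends it to lysosomes, and the binding proteins hold IGFs in the fluid around cells. In skeletal muscle this system supports growth of myoblasts, their differentiation and the enlargement of fibres. In the mouse, Igf2 is transcribed from the paternal allele and Igf2r in most tissues from the maternal allele. Airn, an antisense RNA that starts inside Igf2r on the paternal allele, silences Igf2r there.

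The sequences shown here are those just upstream of listed gene starts, with the distance of the peaks from these starts. No peak centre lay within 1 kb of a listed start of any of the 10 genes. With 10 genes this allows a share of up to 30.8% (exact 95% binomial interval), which holds the 9.22% found over the 17492 protein coding genes with a listed start. The lack of a peak at these starts is therefore not read as a trait of the set. Each sequence below holds the 250 bases before a start (RefSeq, GRCm38.p6), 5′ to 3′ on the strand of the gene, with GATA hexamers in capitals. The first hexamer searched was AGATAA, the next was AGATAG, after it came TGATAA, and the last was TGATAG, each on both strands and counted also where copies overlapped. Igf1 is shown because it had 9 peaks but none near its listed start (chr10:87860861-87861110, plus strand). The Igf1 span begins upstream of this stretch, at 87858265, so the stretch lies within the gene. Igfbp6 is shown because it had no peak although its promoter holds the hexamer (chr15:102143936-102144185, plus strand). Igf1r is shown because its start was the closest of the 10 to a peak (chr7:67952007-67952256, plus strand). Airn is shown because a peak ended 312 bp before its start (chr17:12741061-12741310, plus strand), and Tsc1, an inhibitor of mTOR signalling from the pathway lists below, because this stretch lay inside a peak and holds a hexamer (chr2:28640983-28641232, plus strand). Of the 7 pathway promoters that lay wholly inside a peak, Tsc1 was the only 1 with a hexamer in these 250 bases. In the 300 bases that reach 50 past the start, Akt2 also held 1.
Igf1: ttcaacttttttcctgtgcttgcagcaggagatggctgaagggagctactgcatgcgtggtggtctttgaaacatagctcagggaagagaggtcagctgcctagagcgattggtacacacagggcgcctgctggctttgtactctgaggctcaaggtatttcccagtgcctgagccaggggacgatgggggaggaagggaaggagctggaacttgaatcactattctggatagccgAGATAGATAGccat
Igfbp6: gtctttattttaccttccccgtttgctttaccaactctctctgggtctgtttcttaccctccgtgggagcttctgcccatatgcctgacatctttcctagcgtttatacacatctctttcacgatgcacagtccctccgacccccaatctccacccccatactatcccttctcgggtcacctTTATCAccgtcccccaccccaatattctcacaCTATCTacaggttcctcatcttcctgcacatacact
Igf1r: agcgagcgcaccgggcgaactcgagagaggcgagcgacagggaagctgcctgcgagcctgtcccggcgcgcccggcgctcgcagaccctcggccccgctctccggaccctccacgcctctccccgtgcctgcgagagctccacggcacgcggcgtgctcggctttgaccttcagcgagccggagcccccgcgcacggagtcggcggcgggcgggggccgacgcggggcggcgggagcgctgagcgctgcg
Airn: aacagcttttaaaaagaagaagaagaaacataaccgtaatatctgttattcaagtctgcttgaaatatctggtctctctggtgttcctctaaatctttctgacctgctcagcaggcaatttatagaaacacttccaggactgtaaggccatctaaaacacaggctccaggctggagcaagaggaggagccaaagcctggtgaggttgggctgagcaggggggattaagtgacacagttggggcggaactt
Tsc1: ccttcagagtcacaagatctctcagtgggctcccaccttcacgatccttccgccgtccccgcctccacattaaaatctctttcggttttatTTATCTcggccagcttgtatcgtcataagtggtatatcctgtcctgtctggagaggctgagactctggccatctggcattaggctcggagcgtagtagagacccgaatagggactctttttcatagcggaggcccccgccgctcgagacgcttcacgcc
The Igf1 stretch holds AGATAG at 14 and at 10 bases before the start, in overlapping copies. That of Igfbp6 holds the reverse complements TTATCA at 68 and CTATCT at 36 bases before the start. Of the 14 promoters listed for the 10 genes, only these 2 held a hexamer within the 300 bases from 250 before to 50 after the start, whereas 29.8% of all 32851 listed promoters did. Promoters that lay wholly inside a peak held a hexamer in 24.3% of 1308 cases, against 30% of the other 31543 promoters. A match of letters is a description and not a binding site. Sequences of the distal peaks were not used here.

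Of the 10 genes, 8 had at least 1 GATA4 peak by the 50 kb rule (80.0%, exact 95% binomial interval 44.4% to 97.5%), beside 56.8% of all protein coding genes. The interval covers counting error only and holds the share of all genes. Any overlap of a peak with the window, in place of its centre, also gave 8, beside 57.0%. Igf2 and the empty Igfbp4 and Igfbp6 were not the nearest protein coding gene of any of the 36 peaks, and the other 7 genes were, beside 30.8% of all protein coding genes. The peaks were unevenly divided: Igf2r had 10, Igf1 and Igf1r had 9 each, Igfbp2 had 5, Igfbp5 had 4, and Igf2, Igfbp3 and Igfbp7 had 1 each. Igfbp4 and Igfbp6 had none. Over all protein coding genes the mean was 1.36 peaks and the median 1. Igf1, Igf1r and Igf2r together held 28 of the 36 distinct peaks. They are also the 3 longest genes of the set, at 78.8, 281 and 87.3 kb, and a longer gene has a longer window. Igfbp7, at 58.8 kb, was the next longest and had a single peak.

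**Figure D1:**
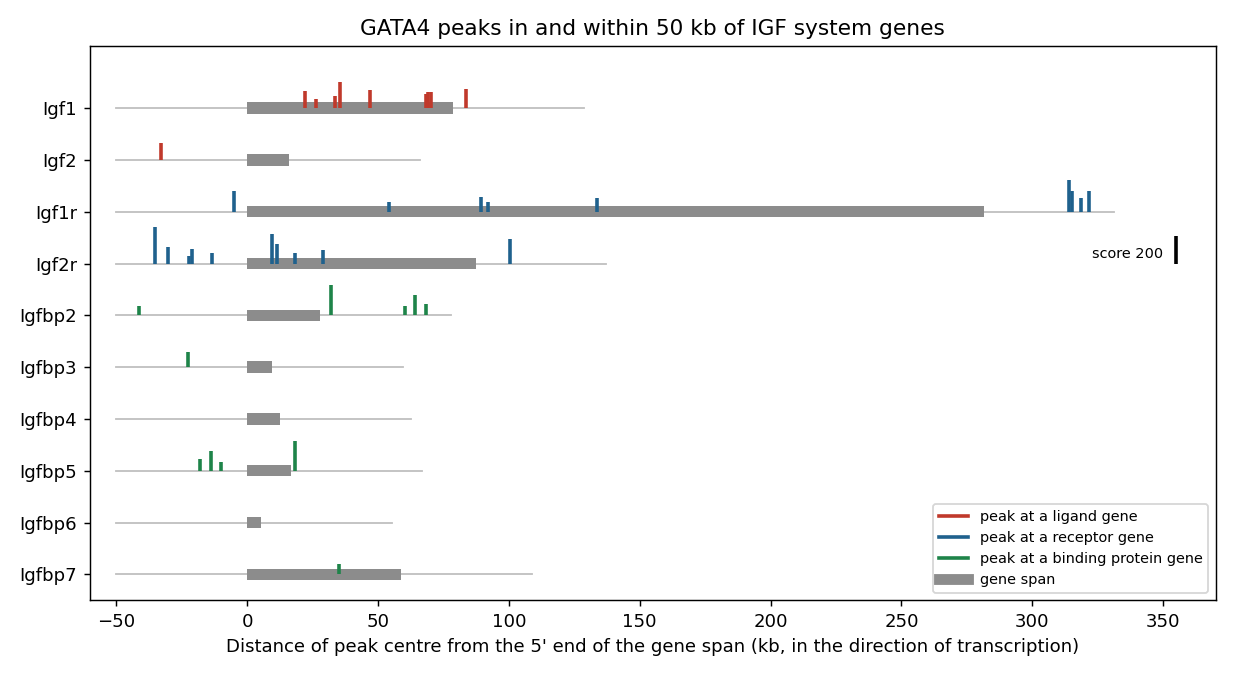
Each row is a gene with its span as a grey bar, and each vertical line is a peak centre placed by its distance in kb from the 5′ end of the span, in the direction of transcription; line height gives the MACS score. Peaks run along 28.1% to 89.1% of the span of Igf1, lie on both sides of the 5′ end of Igf2r and form a group beyond the far end of Igf1r, while the rows of Igfbp4 and Igfbp6 are empty.

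Igf1, the gene of the main growth-promoting IGF, carried GATA4 peaks inside the gene, from 28.1% to 89.1% of the way along it. It lies at chromosome 10, 87858265 to 87937047, on the plus strand. Of its 9 peaks, 8 were centred inside the span and 1 lay 4.77 kb beyond its end. Only 0.580% of protein coding genes of all lengths had 8 or more peak centres inside the span, and 1.04% had 9 or more in the 50 kb window. Among the 1379 genes within 20% of the length of Igf1, the share with 9 or more in that window was 0.943%. The share with 8 or more inside the span is not given for those genes. The peaks had scores of 120, 66.7, 85.7, 192, 130, 98.6, 120, 117 and 138 in the order of transcription. The MACS score is the authors' value per peak and is compared here only within their list, where the median was 99.3 and the quartiles were 77.7 and 138. The peak with a score of 192 (87893295 to 87894242, 948 bp wide) ranked 1809 of 17539 and lay 45.1% of the way along the span. A run of 3 peaks with scores of 98.6, 120 and 117 covered 2.73 kb near the far end of the gene, from 87926062 to 87928792. The gaps between these peaks were only 317 and 98 bp. The first peak in the gene was 19.3 kb past the listed start, and none lay in the 50 kb upstream of the span. Igf1 itself was the nearest protein coding gene for all 9 peaks. Chromosome 10 had 12.5 peaks per Mb against 7.04 over the 19 autosomes. The Igf1 window had 50.3 per Mb (exact 95% Poisson interval 23.0 to 95.6), and 3% (30 of 1001) of the protein coding genes on that chromosome had as many peaks. The part of the chromosome's high density in the Igf1 count was not tested.

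Igf2, the fetal growth factor that myoblasts also make as they differentiate, had a single peak, far upstream. The gene lies at chromosome 7, 142650768 to 142666816, on the minus strand, with 4 listed starts. The peak, at 142699371 to 142700011, had a score of 121 and lay 32.9 kb upstream of the first start. Ins2, an insulin gene, was its nearest protein coding gene, at 20.0 kb, so distance does not assign this peak to Igf2. The next peak was 97.4 kb from the span and scored 56.2. Genes with 1 or more peaks by the same rule made up 58.4% of those within 20% of the length of Igf2. The promoters of Igf2 held no GATA hexamer, and those at 3 of its 4 starts held the letters GGAATG or their reverse complement, which TEAD factors bind and which were present in 14.7% of all promoters.

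Igf1r, which encodes the signalling receptor of both ligands, had peaks in 3 places. It spans chromosome 7 from 67952257 to 68233668 on the plus strand. A peak 4.86 kb upstream of the start (67947060 to 67947727) scored 146 and was the closest to a listed start in the set. Inside the gene lay 4 peaks, 54.3, 89.5, 92.2 and 134 kb past the start, which scored 71.3, 106, 72.5 and 102. All 4 were in the part of the gene nearer to its start, the last of them 47.5% of the way along. At least 4 peak centres in the span were found in 2.57% of protein coding genes of all lengths, and Igf2r also had 4. The share for the span alone is not given among genes of like length. Beyond the far end came a run of 4 peaks over 8.19 kb (68265837 to 68274023), with scores of 229, 147, 97.0 and 153. These were 32.4 to 40.1 kb from Igf1r and closer to other genes. The peaks scoring 229 and 147 were 1.63 and 2.92 kb from Pgpep1l, and those scoring 97.0 and 153 were 3.15 and 0.0425 kb from Fam169b. The last of these peaks (68273570 to 68274023) was centred 42 bp from a listed start of Fam169b. Counting only peaks whose nearest protein coding gene was Igf1r left 5. Of the 377 genes within 20% of the length of Igf1r, 7.43% had 9 or more peaks, and 0.542% of protein coding genes on chromosome 7 did.

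Igf2r had 10 peaks within 50 kb, the most of the 10 genes in that window, and 8 of them lay within the span of its antisense RNA, Airn. In the span or within 10 kb it had 4 against 9 at Igf1, and within 100 kb it had 10 against 13 at Igfbp5. Igf2r occupies chromosome 17 from 12682406 to 12769706 on the minus strand, and Airn overlaps its 5′ part on the plus strand (12741311 to 12859884). Airn thus covers much of the 50 kb window of Igf2r. No background share for spans of such RNAs is given, so the 8 peaks are not read as a concentration in Airn. Of the 10 peaks, 4 were inside Igf2r, 5 were upstream of it and 1, with a score of 176, was downstream. Only 0.726% of protein coding genes had 10 or more peaks in the 50 kb window, 0.618% of the 1295 genes within 20% of its length did, and 0.850% of those on chromosome 17 did. The density in the window was 53.4 peaks per Mb (exact 95% Poisson interval 25.6 to 98.2), against 7.26 over the chromosome.
In the direction of Airn transcription, a first peak inside Igf2r (12740261 to 12740999, score 101) was centred 681 bp before the listed Airn start. It was 29.1 kb into Igf2r. The next peaks inside both genes scored 76.3, 138 and 216. The peak with a score of 216 (12759632 to 12760334) was 9.72 kb from the Igf2r start. The peak with a score of 138 was 327 bp wide, the narrowest of the 36. Upstream of Igf2r, peaks at 13.6, 20.9, 22.0, 30.1 and 35.2 kb scored 78.1, 105, 52.4, 121 and 262. The farthest of these (12804601 to 12805304) had the highest score of the whole set and ranked 611 in the list. It was inside Airn, and its nearest protein coding gene was Mas1, at 33.9 kb, slightly closer than Igf2r. A peak list of pooled alleles does not tell the maternal from the paternal copy.

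Igfbp2 and Igfbp5, neighbours on chromosome 1 that point their 3′ ends at each other, shared their strongest peak. Igfbp2 spans 72824480 to 72852474 on the plus strand and Igfbp5 spans 72858065 to 72874865 on the minus strand. Igfbp5, which is abundant in differentiating muscle cells, encodes a binding protein of the extracellular matrix. The shared peak (72855890 to 72857425) was 1536 bp wide, the widest of the 36, and scored 216, rank 1208. It lay in the gap between the genes, 4.18 kb past the end of Igfbp2 and 1.41 kb past the end of Igfbp5. Upstream of Igfbp5, 3 peaks at 9.86, 13.6 and 17.8 kb scored 66.2, 144 and 84.0, within 8.60 kb (72884376 to 72892978). Igfbp5 was the nearest protein coding gene for all 4 of its peaks within 50 kb. Its count depended on the window, with 2 peaks within 10 kb and 13 within 100 kb. Igfbp2 was the nearest for only 1 of its 5, a peak 41.2 kb upstream with a score of 67.3, inside the lncRNA gene Gm30847. Neither gene had a peak inside its span. Of all protein coding genes, 5.75% had 5 or more peaks in the window and 10.4% had 4 or more. Among genes of like length the shares were 3.80% for Igfbp2 and 7.88% for Igfbp5, and among those of chromosome 1 they were 7.14% and 13.9%.

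Igfbp3 and Igfbp7 had 1 peak each. Igfbp3 encodes the binding protein that carries most IGF in blood, and lies at chromosome 11, 7206086 to 7215498, on the minus strand. Its peak (7237654 to 7238069, 416 bp wide) was 22.4 kb upstream and scored 110. The peak was inside the lncRNA gene Gm36565, and it was also the only one within 50 kb of the neighbouring Igfbp1. Igfbp7, a secreted protein that binds IGFs weakly, is encoded at chromosome 5, 77349240 to 77408045, on the minus strand. Its peak (77372556 to 77373340) was in the middle of the gene, 35.1 kb from the start, and scored 74.2, below the lower quartile of the list. Having at least 1 peak was common: 56.2% of genes of the length of Igfbp3 and 65.6% of those of the length of Igfbp7 did.

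Igfbp4 and Igfbp6 had no peak within 50 kb. Igfbp4, whose product is cleaved by the protease PAPP-A, lies at chromosome 11, 99040005 to 99052655, and its nearest peak was 91.7 kb away with a score of 71.6. Igfbp6, whose product prefers IGF2, lies at chromosome 15, 102144186 to 102149512, and its nearest peak was 54.0 kb away with a score of 97.0. Both are short genes, at 12.7 and 5.33 kb, and 58.9% and 53.5% of genes of like length had a peak. The list holds only peaks above the authors' threshold, which is not given, so weaker binding at these genes is not shown to be absent. Within 100 kb all 10 genes had a peak, beside 69.9% of protein coding genes.

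The scores of peaks at IGF system genes lay on both sides of the list's median. The 36 distinct peaks had a median score of 114, quartiles of 82.5 and 145 and a range from 52.4 to 262, against a median of 99.3 and a range from 50.1 to 861 over all peaks. Of the 36, 23 were above the list's median (63.9%), 10 were above its upper quartile (27.8%) and 8 were below its lower quartile. A peak above the median score was found at 7 of the 10 genes, beside 36.8% of protein coding genes, and one above the upper quartile at 5, beside 19.9%. The exact binomial 95% interval of the median score, 97.0 to 138, holds the median of the list. It treats the 36 peaks as independent, although 28 of them lay in the windows of Igf1, Igf1r and Igf2r, so it may be too narrow. The 10 ligand peaks had a median of 120, the 19 receptor peaks 106 and the 7 binding protein peaks 84.0. Scores overlapped among the 3 roles, with ranges of 66.7 to 192, 52.4 to 262 and 66.2 to 216. Leaving out the Igf1, Igf2r or Igf1r window gave medians of 106, 114 and 117. The median width was 723 bp, against 745 bp in the list.

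**Figure D2:**
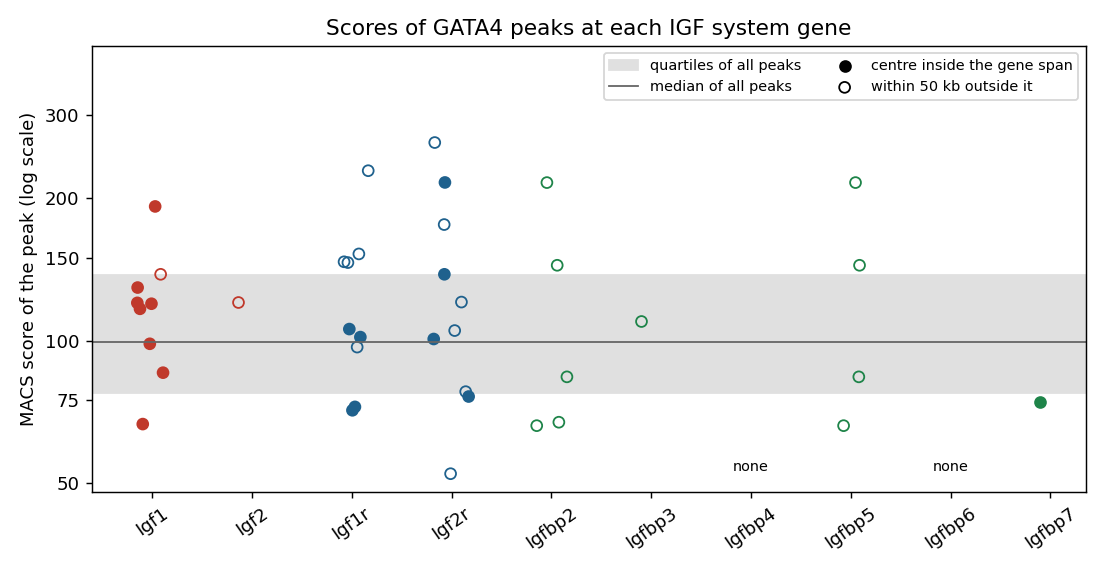
Each point is a peak, with its MACS score on a log axis, at the gene in whose window it lies; filled points are centred inside the gene span and open points within 50 kb outside it. The grey band gives the quartiles (77.7 and 138) and the line the median (99.3) of all 17539 peaks, and the points of Igf1, Igf1r, Igf2r, Igfbp2 and Igfbp5 lie on both sides of that line.

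Peaks inside a gene span belonged to Igf1 and the receptors, apart from the single peak of Igfbp7. Of the 40 pairs of a gene and a peak, 17 were inside (42.5%), 12 upstream (30.0%) and 11 downstream (27.5%). Over 24093 such pairs of all protein coding genes with a known strand, 30.4% were inside, 35.6% upstream and 33.9% downstream. The 4 peaks shared by Igfbp2 and Igfbp5 enter the 40 pairs once for each gene, and none was inside either gene. Inside the span alone, 4 of the 10 genes had a peak, beside 21.0% of all protein coding genes, and in the span or within 10 kb, 6 of the 10, beside 33.3%. The 4 genes with a peak inside are the longest of the set, and these shares are not matched for gene length. Of the 36 peaks, 2 were within 1 kb of a listed start of some gene, and those starts belonged to Airn and Fam169b. The same share over all peaks of the list is not given here, so these 2 are not read as few or many.

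**Figure D3:**
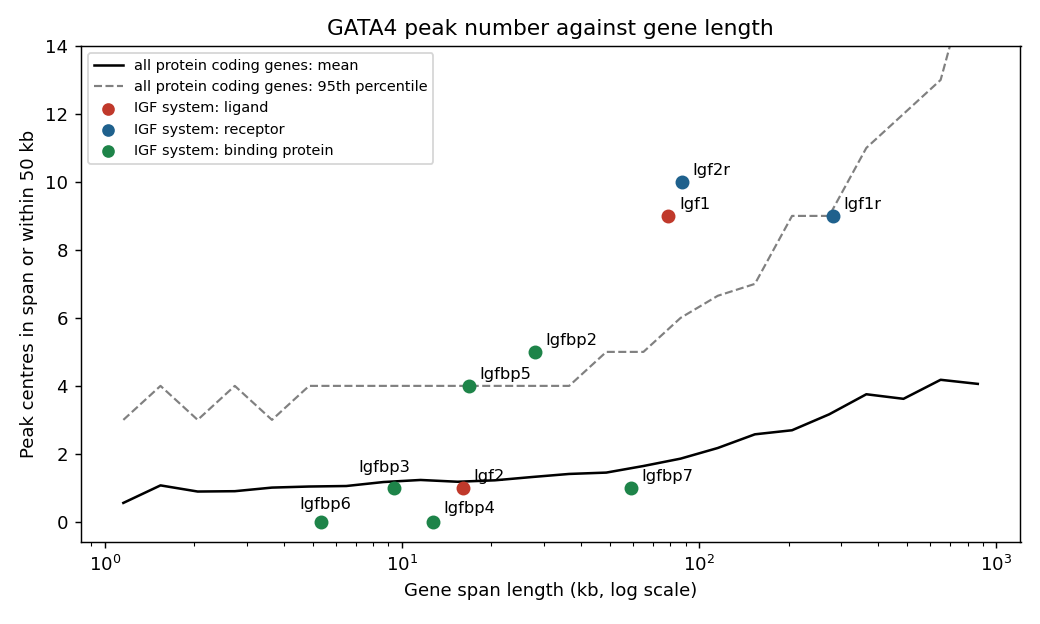
Each point is an IGF system gene, with its span length in kb on a log axis and its number of peak centres in the span or within 50 kb; the lines give the mean and the 95th percentile of all protein coding genes in length bins of at least 50 genes. Igf1 with 9 peaks, Igf2r with 10 and Igfbp2 with 5 stand above the 95th percentile line, Igf1r with 9 and Igfbp5 with 4 lie on it, and Igfbp4 and Igfbp6 are at 0.

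Among genes that carry or adjust the IGF signal, some had a GATA4 peak at the start itself. Beyond the 10 genes, 55 pathway genes in 7 lists were examined, and 43 of them (78.2%, exact 95% interval 65.0% to 88.2%) had a peak by the 50 kb rule, beside 56.8% of protein coding genes. Within 10 kb the count was 35 (63.6%, 49.6% to 76.2%), beside 33.3%. The pathway genes were long, with a median span of 61.3 kb against 17.2 kb for all protein coding genes. Of the 1626 genes within 20% of that length, 64.9% had a peak by the 50 kb rule and 45.8% within 10 kb. Of the 43 pathway genes with a listed start, 11 had a peak centre within 1 kb of it (25.6%, 13.5% to 41.2%), beside 9.22% of protein coding genes, and none of the 10 IGF system genes did. The difference between the sets was not tested, and the exact 95% interval for the 10 genes reaches 30.8%. No share at starts is given for genes of like length, so the 25.6% is not read as a trait of the pathway.
Peaks close to starts were found at Akt2 (score 88.3, centred 0.0045 kb from the start), Shc1 (77.8 at 0.0545 kb), Tsc1 (130 at 0.109 kb), Gsk3b (85.8 at 0.111 kb), Pik3r3 (52.2 at 0.127 kb) and Pik3ca (106 at 0.131 kb). The others were at Foxo3 (82.3 at 0.162 kb), Rptor (74.0 at 0.206 kb), Ghr (72.5 at 0.387 kb), Akt1 (80.7 at 0.428 kb) and Rictor (63.5 at 0.842 kb). Akt1 and Akt2 encode AKT kinases, and Pik3ca and Pik3r3 encode subunits of PI3K. Rptor and Rictor encode the subunits that set the mTOR complexes apart, and Ghr encodes the growth hormone receptor. In 9 of these 11 genes the peak scored below the list's median, the exceptions being Tsc1 and Pik3ca. Genes without a listed start are not in this count. Among them, Eif4ebp1 of the mTOR branch had a peak with a score of 107 (27260212 to 27261538) over the end of its span at 27260327.

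**Figure D4:**
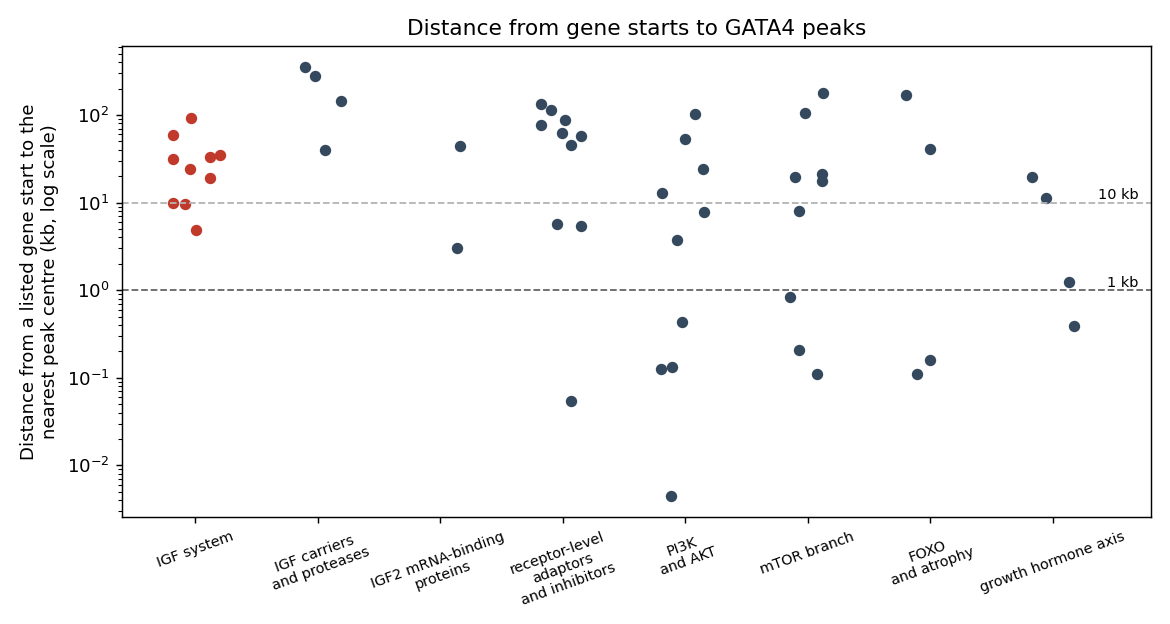
Each point is a gene, placed by the distance in kb, on a log axis, from a listed start to the nearest GATA4 peak centre, with the 10 IGF system genes at the left and the 7 pathway lists after them; pathway genes without a listed start are left out. The IGF system genes lie between 4.86 and 92.9 kb, while 11 pathway genes lie below the 1 kb line.

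The branches of the pathway are given in turn, and each count within 10 kb stands beside 33.3% of all protein coding genes and 45.8% of genes of the pathway's median length. The lists are short, so the exact 95% intervals are wide and no order among them is read. Of 12 PI3K and AKT genes, 10 had a peak within 10 kb (83.3%, 51.6% to 97.9%), and the strongest were at Pik3r3 (score 343, inside the gene), Pik3ca (128) and Phlpp1, which encodes an AKT phosphatase (113 at 3.74 kb). Pik3r2 had none within 50 kb. Of 11 mTOR branch genes, 8 had one (72.7%, 39.0% to 94.0%), led by Rictor (214 at 2.74 kb), Deptor, which encodes an mTOR inhibitor (199), and Tsc1 (130), while Mtor and Tsc2 had none within 50 kb. Of 12 adaptor and inhibitor genes at the receptor, 6 had one (50%, 21.1% to 78.9%), led by Shc1 (246 at 6.37 kb), Socs2, an inhibitor of growth hormone signalling (232), and Grb10, an imprinted inhibitor of the receptor (198). Grb2, Grb14 and Gab1 had none within 50 kb.
Of 6 FOXO and atrophy genes, 4 had a peak within 10 kb (66.7%, 22.3% to 95.7%). They included Fbxo32, which encodes the muscle atrophy ubiquitin ligase atrogin-1 (score 277), Foxo3 (213) and Foxo1 (137), while Foxo4 and Trim63, which encodes the ligase MuRF1, had none within 50 kb. All 4 growth hormone axis genes had one (interval from 39.8%), led by Jak2 (182), Ghr (153 at 4.69 kb) and Stat5b (153). Of the 3 genes of IGF2 mRNA-binding proteins, Igf2bp2 (202) and Igf2bp3 (105) had one (66.7%, 9.43% to 99.2%). Of 7 extracellular carriers and proteases, 1 had a peak within 10 kb (14.3%, 0.361% to 57.9%). That gene was Pappa, which encodes PAPP-A, with 7 peaks inside the gene and a top score of 216. Pappa is long, at 233 kb. Over protein coding genes of all lengths, 2.57% had 4 or more peak centres in the span and 0.580% had 8 or more. Igfbpl1, Igfals, Pappa2 and Stc2 had none within 50 kb.

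On either side of the 50 kb limit, only the genes whose peaks came closest to it are given, with 1 peak per gene. The farthest peak kept for a gene was 41.2 kb from Igfbp2 (score 67.3), 40.1 kb from Igf1r (153) and 35.2 kb from Igf2r (262). The first peak left out for a gene was 54.0 kb from Igfbp6 (score 97.0), 72.4 kb from Igfbp5 (84.1) and 91.7 kb from Igfbp4 (71.6). For Igf1 no further peak lay closer than 440 kb.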

How the data were processed

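The deposited file is 1 list of GATA4 peaks that gives the ends and the MACS score of each. The score is the value the authors deposited for each peak. MACS was run in Galaxy, per the file headers. CASAVA 1.8 and Bowtie were used and the build was GRCm38 (mm10), per the submitters' processing notes. Not given in the sources used here are the versions of MACS and Bowtie, whether duplicates were kept, the threshold and whether the IgG library served as control. Peak calls of a single library carry no replicate error.

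For 1-based coordinates, 1 was added to each deposited start. Gene spans came from a RefSeq table of GRCm38.p6, in which all 65 listed symbols matched, and starts, strands and promoters from a RefSeq promoter table of the same build, with starts for all 10 genes and for 43 of the 55 pathway genes. Neither gives exons or untranslated regions. Shares have exact binomial intervals and densities exact Poisson intervals, for counting error only. Densities divide by the last annotated gene end of a chromosome. Window counts were tested on simulated data (Python 3.11.15, pandas 2.3.3, scipy 1.17.1).

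The 10 genes and the pathway lists were chosen with earlier results of these data known. The genes named are the 10 with all their peaks, or of the pathway lists up to 3 per list with the highest score within 10 kb, those with a peak within 1 kb of a start and those with none within 50 kb. Eif4ebp1, which has no listed start, is named for a peak over an end of its span. The plan printed promoters only with a peak within 1 kb; those of Igf1, Igf1r, Igfbp6 and Airn were added after seeing the data. The gene that holds the downstream peak of Igf2r is not reported here.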

Additional observations from a re-analysis of the deposited data

How the results depend on the processing

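With the gene span alone, 4 of the 10 IGF system genes, 17 distinct peaks and 28 of the 55 pathway genes remained counted, and 21.0% of protein coding genes had a peak. With only peaks above the upper quartile of scores the values were 5 genes, 10 peaks, a median score of 184 and 19 pathway genes, beside 19.9% of protein coding genes. The number of distinct peaks was 21 with a 10 kb window and 23 with peaks above the median score. Fewer positions or fewer peaks enter by construction in each of these. Peak width in place of the score gave a median of 723 bp. The median score, 114 as reported, was 106 with the 10 kb window and 106 with the 100 kb window. It was 102 with the gene span alone and 105 with the nearest protein coding gene, closer to the list's median of 99.3. Any overlap of peak and window left it at 114, and peaks above the median score gave 138. The number of genes with a peak was 6 with the 10 kb window, 10 with the 100 kb window, 7 with the nearest protein coding gene, 7 with peaks above the median score and 8 with any overlap of peak and window. The shares of protein coding genes beside these were 33.3%, 69.9%, 30.8%, 36.8% and 57.0%. Of 70 counts for single genes under these alternatives, 40 stayed within 1.5 times the reported count and 30 did not. The 40 include the counts of 0 that Igfbp4 and Igfbp6 kept under every alternative but the 100 kb window. A narrower window or fewer peaks cannot change a count of 0, so the 40 overstate how stable the counts were. No paired analysis was possible because each antibody had 1 library. Depth is unknown, so an empty window is not shown to lack binding.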

Other observations

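Neighbours of the imprinted Igf2 and Igf2r genes, chosen after their values were seen, had these GATA4 peaks. H19, the maternally transcribed RNA gene that shares enhancers with Igf2, had 3 peaks within 50 kb and none within 10 kb. The nearest was 22.1 kb away with a score of 56.2, and another, which was also the nearest to Mrpl23, scored 126. Th, beyond Ins2 on the other side of Igf2, had its nearest peak 169 kb away. Slc22a3, which Airn silences in the placenta, had 1 peak within its span, scoring 70.3.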
